A study of Mus musculus with 18 samples.

Results

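The messenger RNAs of 9 genes that take up, store, release or recycle iron were followed in mouse bone marrow-derived macrophages (BMDMs) while these cells were turned towards osteoclasts. The genes were chosen by symbol: Tfrc, Slc11a2, Slc11a1, Steap3 and Steap4 for uptake and reduction, Slc40a1 for export, Fth1 and Ftl1 for storage, and Hmox1 for the breakdown of heme. All 9 were found, each on 1 line of a table of 34745 genes, and all 9 were among the 14241 genes that passed the filter on low counts. BMDMs were grown from the marrow of mice labelled Zmat1 ko (global knockout on a C57BL/6 background) or of their wild-type littermates. Every group received M-CSF, the growth factor of macrophages, first alone. RANKL, the cytokine that drives osteoclast formation, was then given for 0, 1 or 3 days, and each of the 6 groups of label and day held 3 libraries. Day 0 held the only libraries without RANKL, so in every comparison of days RANKL cannot be told apart from longer culture. Neither the labels nor the methods say whether the libraries of a group came from different animals, so p-values measure the spread between these libraries only. The mice were juvenile to young adult by the ages in the study's methods.

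Total counts ran from 13789775 to 17559958 per library. Levels are CPM, the reads of a gene scaled to a common library size by edgeR's TMM factors. Zmat1 itself lay between 3.49 and 7.61 CPM in the 9 libraries labelled KO and between 2.19 and 7.5 CPM in the 9 labelled WT. These levels did not separate the labels. Counts per gene cannot show whether a part of the gene is missing, so they do not test the knockout. The study reports that it checked the genotype by PCR on tail DNA and Zmat1 messenger in BMDMs by qPCR. The groups are called the libraries labelled KO and WT throughout. The titles were written in 2 ways, with a double hyphen in 5 of them (under WT, library 1 of day 0 and 1 of a pair numbered 1 on day 1, and under KO, library 2 of day 0 with libraries 1 and 2 of day 1). That punctuation is a label and no stated batch, but some of the iron genes followed it. For Tfrc, Fth1 and Slc11a2 on day 3, and Steap3 on day 3 in WT, values are given with and without these libraries. All 8 macrophage markers were measured on day 0, where their summed level was 28924 to 59505 CPM. On day 3 it was 6174 to 17117 CPM, and the summed level of 10 osteoclast markers rose from 224 to 988 CPM on day 0 to between 8293 and 23381 CPM. On day 0 the osteoclast sum was 224 to 649 CPM in WT and 670.5 to 988 CPM in KO, without overlap. On day 3 it was 16039 to 23381 CPM in WT and 8293 to 17734 CPM in KO, which overlapped. Stromal and osteoblast markers summed to 9657 to 12619 CPM on day 3 in WT and to 16835 to 25419.5 CPM in KO. Neutrophil markers summed to 596 to 2674 CPM on day 0 in WT and to 3256 to 10821 CPM in KO. The labels did not overlap in this stromal sum of day 3 or in this neutrophil sum of day 0. These markers of other cell types were read beside the iron genes. From day 0 to day 3, 6 of the 9 stromal and osteoblast genes tested rose in WT and 8 in KO. Of 10 cell cycle genes 2 rose in WT and none in KO. With total counts as the scaling 7 of these 10 rose in WT, as they did in single-hyphen libraries alone. With title style as a term in the fit 4 rose, and none rose in KO in any of these settings. Of all genes tested 50.2% changed in WT and 42.5% in KO, in either direction. Of 5 erythroid genes tested 1 fell under either label.

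Iron reaches most cells bound to transferrin, which is taken up by the transferrin receptor encoded by Tfrc. Inside the endosome ferric iron is reduced by STEAP proteins and passed to the cytosol by DMT1 (Slc11a2), whereas the related NRAMP1 (Slc11a1) sits in the phagosomes of macrophages. Iron that is not used is held in ferritin, a shell of heavy (Fth1) and light (Ftl1) chains, or leaves the cell through ferroportin (Slc40a1), the only known exporter. Macrophages handle large amounts of iron because they break down old red cells, and heme oxygenase 1 (Hmox1) opens the heme ring to set it free. Osteoclasts carry many mitochondria, and iron uptake through the transferrin receptor is known to accompany their formation.

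By the loci in the deposited table (GRCm38), Tfrc spans chr16:32608920-32632794 (plus strand) and Slc40a1 chr1:45908068-45926523 (minus strand). Fth1 spans chr19:9982703-9985092 (plus), Ftl1 chr7:45457944-45459884 (minus) and Hmox1 chr8:75093591-75100596 (plus). Slc11a1 lies at chr1:74375195-74386062 (plus), Slc11a2 at chr15:100387898-100425072 (minus), Steap3 at chr1:120190757-120272705 (minus) and Steap4 at chr5:7960457-7982213 (plus).

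Several of these messengers carry iron-responsive elements, short hairpins to which the iron regulatory proteins bind when iron is low. In a 5′ UTR the bound protein blocks translation, and in the 3′ UTR of Tfrc it protects the messenger from decay. Such hairpins were searched by sequence in the GENCODE M21 transcripts (GRCm38). A match marks a messenger that could be controlled after transcription, a layer that read counts reflect for stability alone. The search asked for the loop CAGTGN with no G in its last place, at least 4 of 5 base pairs in the stem next to it, an unpaired C before that stem and at least 3 of 6 pairs below. It found 7 sites in 4 of the 9 genes, against a match in 336 of 21899 protein-coding genes (1.53%). The 7 sites follow, 5′ to 3′ on the strand of the gene, with the loop in capitals.
Fth1, 5′ UTR, chr19:9982732-9982760, plus strand: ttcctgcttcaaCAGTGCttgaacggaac
Ftl1, 5′ UTR, chr7:45459779-45459807, minus strand: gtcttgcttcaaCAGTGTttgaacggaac
Slc40a1, 5′ UTR, chr1:45925465-45925493, minus strand: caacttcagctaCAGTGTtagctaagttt
Tfrc, 3′ UTR, chr16:32631219-32631247, plus strand: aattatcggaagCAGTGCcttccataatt
Tfrc, 3′ UTR, chr16:32631598-32631626, plus strand: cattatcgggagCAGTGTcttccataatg
Tfrc, 3′ UTR, chr16:32631663-32631691, plus strand: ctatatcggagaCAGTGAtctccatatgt
Tfrc, 3′ UTR, chr16:32631710-32631738, plus strand: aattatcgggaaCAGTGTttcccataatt
All 5 pairs of the stem next to the loop were formed in each of the 7. The other 5 genes, Slc11a2 among them, held no stretch that met these rules. This says only that the pattern is not in their annotated UTRs, and such a search can miss known elements. The counts are per gene, so forms of a messenger with and without a hairpin, as known for Slc11a2, were not told apart.

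RANKL for 3 days was followed by a fall of storage, export and heme breakdown genes and by a rise of 1 reductase. In the libraries labelled WT 6 of the 9 genes passed the test (edgeR quasi-likelihood test, Benjamini-Hochberg adjusted p under 0.05), 5 lower and 1 higher, beside 50.2% of all genes tested. On the log2 scale Slc40a1 changed by -3.61, Slc11a1 by -2.07, Fth1 by -1.47, Ftl1 by -1.37, Hmox1 by -1.28 and Steap4 by 7.5. The same comparison in the libraries labelled KO called 6 of 9 genes, again 5 lower and 1 higher, beside 42.5% of all genes. Read against these shares, the number of called genes says little about iron genes as a group. The median log2 fold change of the 9 genes was -1.28 in the WT and -1.21 in the KO libraries, and that of all genes tested was -0.03 and -0.01. Libraries of day 3 and day 0 did not overlap for 6 of 9 genes in either label, which was so for 62.5% of all genes under WT and 58.8% under KO.

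**Figure D1:**
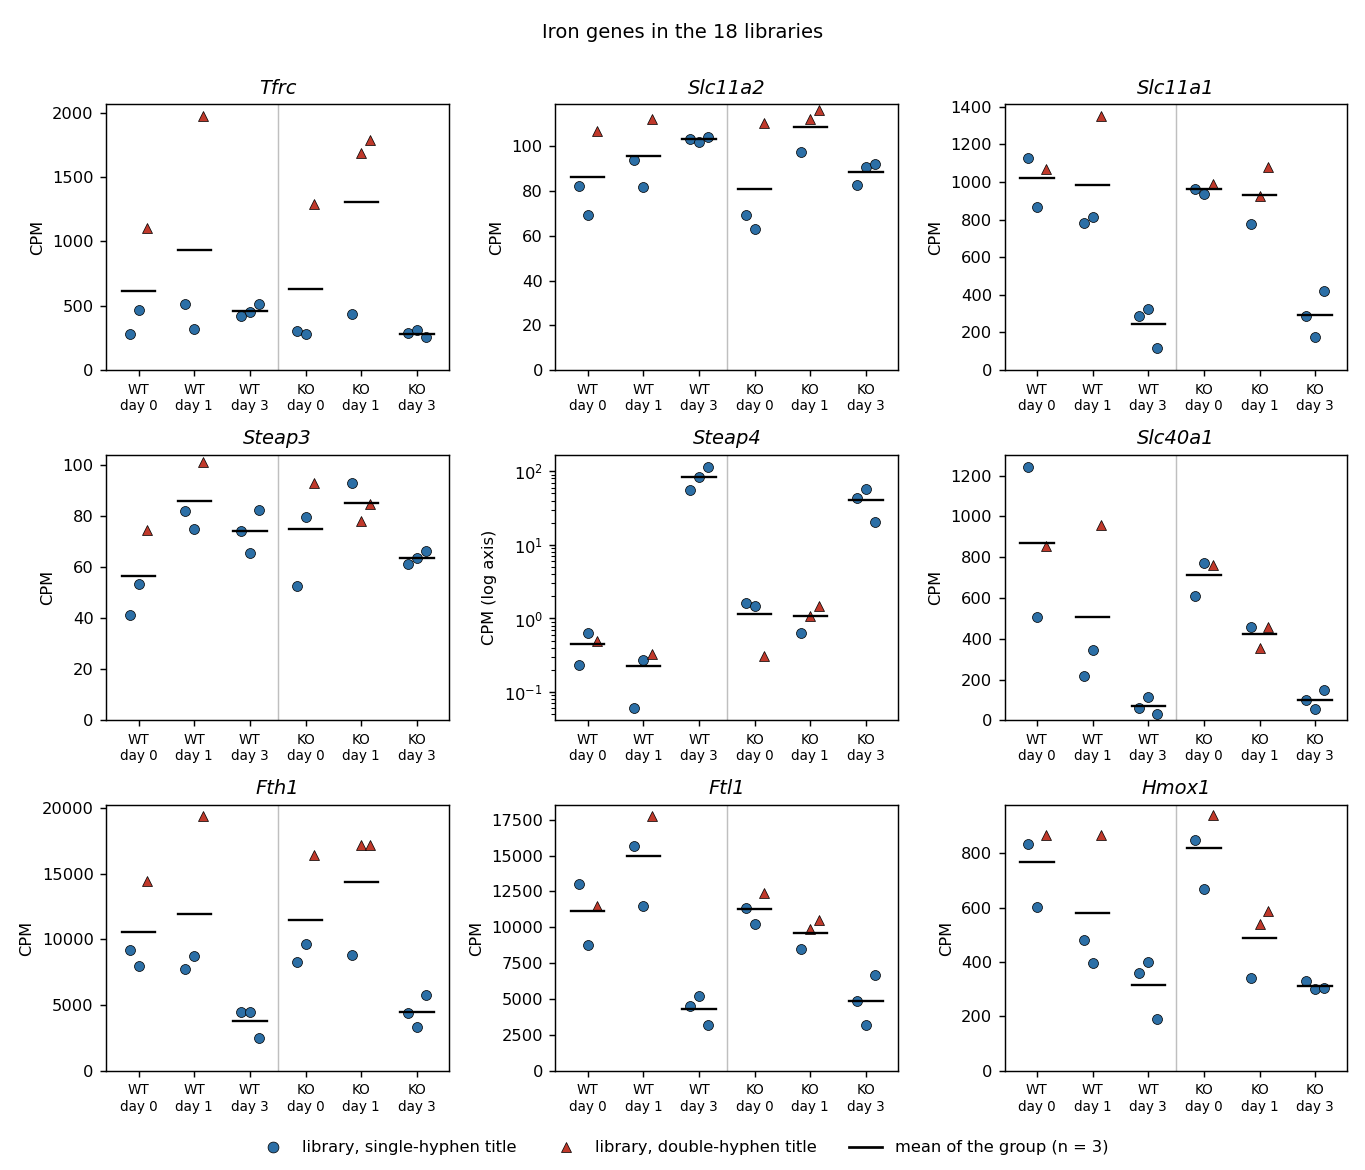
Level of each of the 9 iron genes (CPM, TMM-scaled) in the 18 libraries by label and RANKL day; circles are libraries with single-hyphen titles, triangles those with double-hyphen titles, bars are means of 3 libraries, and the axis of Steap4 is logarithmic. Slc40a1, Slc11a1, Fth1, Ftl1 and Hmox1 lie lowest on day 3 under both labels, Steap4 highest, and the 5 double-hyphen libraries hold the 5 highest values of Tfrc, 1107 to 1978 CPM.

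The size of these changes depends on the scaling, and the directions of the called genes do not. Without the TMM factor, by total counts alone, the median of all genes moved from -0.03 to 0.33 in the WT and from -0.01 to 0.29 in the KO comparison. The calls over all genes moved with it from 3370 higher and 3773 lower to 5153 higher and 2221 lower in the WT libraries. The KO libraries went from 2873 higher and 3173 lower to 4274 higher and 1963 lower. Under total counts Slc40a1 fell by 3.26 and Fth1 by 1.10 in the WT libraries, and the 6 genes remained called in both labels. Slc11a2 (0.63, adjusted p = 0.00319) and Steap3 (0.77, adjusted p = 0.00471) were then called higher as well in WT, which made 3 higher and 5 lower, and Slc11a2 in KO (0.44, adjusted p = 0.0276), which made 2 higher and 5 lower.

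Ferroportin, the exporter, changed most among the genes that fell. Slc40a1 was at 856, 1242 and 509 CPM in the 3 WT libraries of day 0 and at 62.9, 116 and 33.7 CPM in those of day 3. In the KO libraries it was at 609, 760.3 and 771 CPM on day 0 and at 101, 54.2 and 149.7 CPM on day 3. Every day 3 library lay below every day 0 library, by 12.2-fold in the fit for WT (log2 fold change -3.61, SE 0.585, adjusted p = 2.19e-04) and by 7.03-fold for KO (-2.81, SE 0.565, adjusted p = 0.00152). Day 1 lay between them in the means, at 509 ± 396 CPM (SD, n = 3) for WT and 423 ± 60.2 CPM for KO. The WT spread came from the double-hyphen library, at 959.9 CPM against 219 and 346 CPM in the other two. Against day 0 the WT difference was -0.77 (SE 0.53, adjusted p = 0.433), and -1.62 among single-hyphen libraries. No alternative fit called it, the lowest adjusted p being 0.0547. The KO libraries of day 1 (353, 459 and 457 CPM) all lay below those of day 0, but the difference did not pass the test (-0.75, adjusted p = 0.67).

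Ferritin messengers were among the most abundant of the cells. Fth1 ranked between place 5 and 17 by read count in the 18 libraries, and Ftl1 between place 2 and 18. Fth1 stood at 14422, 9186 and 7985 CPM in the WT libraries of day 0 and at 4456, 4444 and 2489 CPM on day 3, with no overlap. Its KO libraries held 8293, 16392 and 9630 CPM on day 0 and 4414, 3337 and 5745 CPM on day 3. The fall was 2.77-fold for WT (log2 fold change -1.47, SE 0.429, adjusted p = 0.0112) and 2.54-fold for KO (-1.35, SE 0.428, adjusted p = 0.0213). The Fth1 call was lost when WT day 3 library 3 (adjusted p = 0.0539) or WT day 0 library 1 (0.0572) was left out. For KO it was lost without day 3 library 1 (0.0601), day 3 library 2 (0.0849) or day 0 library 2 (0.105), with the direction kept each time. Within the 13 single-hyphen libraries Fth1 fell by 1.12 in WT (adjusted p = 0.0105) and by 0.94 in KO (adjusted p = 0.026).

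Ftl1, the light chain, was at 11509, 13022 and 8797 CPM in the WT libraries of day 0 and at 4492, 5179 and 3221 CPM on day 3. Its KO libraries were at 11319, 12359 and 10203 CPM on day 0 and at 4830.2, 3174 and 6691 CPM on day 3. The groups did not overlap, and the fall was 2.59-fold for WT (-1.37, SE 0.288, adjusted p = 0.00142) and 2.31-fold for KO (-1.21, SE 0.287, adjusted p = 0.0044). On day 1 the labels lay apart, with 15701, 17787 and 11519.9 CPM in the WT and 9853, 10529.7 and 8482 CPM in the KO libraries. That difference had an unadjusted p of 0.0399 and an adjusted p of 0.621 (log2 fold change -0.64, SE 0.284). The table has 11 further lines whose symbols start with Fth or Ftl and that could be near-identical copies. Of these 8 were at 0 in every library and none held more than 18 counts in any, and adding them to Fth1 and Ftl1 changed no call.

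The balance of both chains separated the title styles. For every read of Ftl1 the 5 double-hyphen libraries held 1.09 to 1.74 reads of Fth1, and the 13 single-hyphen libraries 0.491 to 1.05. On day 3, where all titles have a single hyphen, the ratio was 0.773 to 0.992 for WT and 0.859 to 1.05 for KO. In the single-hyphen libraries of day 0 it was 0.705 to 0.944, which overlapped day 3, with 1 library of either label above it on day 3 (0.992 and 1.05). The ratio is one of reads, not of molecules.

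**Figure D2:**
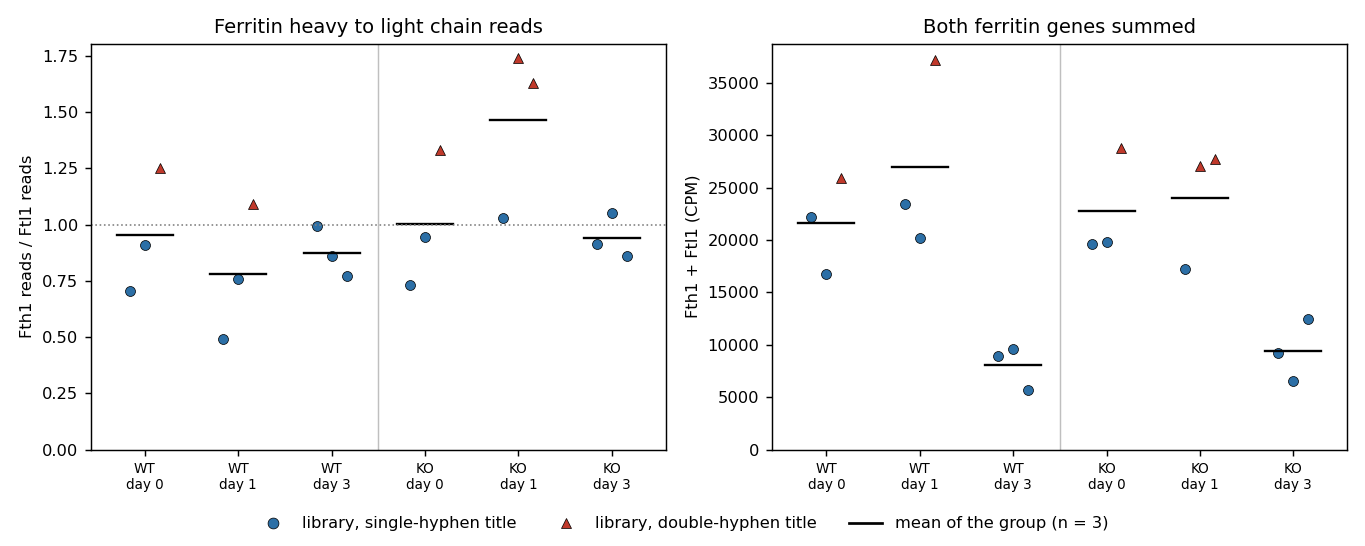
Reads of Fth1 per read of Ftl1 (left) and their summed level in CPM (right) in each library by label and RANKL day; circles are single-hyphen and triangles double-hyphen titles, bars are means of 3 libraries, and the dotted line marks equal reads. The ratio is 1.09 to 1.74 in the triangles and 0.491 to 1.05 in the circles, and the sum falls to between 5711 and 12437 CPM on day 3.

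In all WT groups and in KO on day 3, which chain was the more abundant per length depended on the length used. The deposited FPKM values divide by 866 bases for Fth1 and 2826 for Ftl1, and on that scale Fth1 stood at 10954 ± 2900.5 FPKM (SD, n = 3) and Ftl1 at 3575 ± 678 FPKM in the WT libraries of day 0, a ratio of 3.06. Divided by the main GENCODE transcripts, 929 bases for Fth1 and 968 for Ftl1, the same libraries gave a ratio of 0.988. In KO Fth1 led on both scales on day 0 (3.26 and 1.06) and on day 1 (4.8 and 1.56). In both measures the ferritin genes held the top places of the 9 in all 6 groups. Below them on day 0 came Hmox1, Slc11a1, Slc40a1, Tfrc, Slc11a2, Steap3 and Steap4, in this order on both scales and for both labels. On day 3 ferroportin was last of the 9 for WT on both scales, at 7.67 ± 4.37 FPKM.

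Hmox1, whose product cleaves heme, also fell. The WT libraries held 865, 834 and 601 CPM on day 0 and 359, 401 and 189 CPM on day 3. The KO libraries held 848, 939 and 669 CPM on day 0 and 331, 301 and 303 CPM on day 3. No library of day 3 reached the lowest of day 0, and the fall was 2.42-fold for WT (-1.28, SE 0.316, adjusted p = 0.00423) and 2.63-fold for KO (-1.39, SE 0.317, adjusted p = 0.00334). On day 1 the KO libraries (539, 588 and 341 CPM) were already below those of day 0, with an unadjusted p of 0.0316 and an adjusted p of 0.444.

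Slc11a1, the phagosomal transporter of macrophages, stood at 1067, 1128 and 868 CPM in the WT libraries of day 0 and at 289, 324 and 118 CPM on day 3. It was at 965, 990 and 937 CPM in the KO libraries of day 0 and at 286, 174 and 423 CPM on day 3. The fall was 4.19-fold for WT (-2.07, SE 0.364, adjusted p = 4.10e-04) and 3.28-fold for KO (-1.71, SE 0.36, adjusted p = 0.00204), and day 1 stayed near day 0 (-0.06 and -0.05, neither called). Of the 8 macrophage markers 7 fell on day 3 under either label and none rose, with a median log2 fold change of -2.40 for WT and -1.93 for KO. All 10 neutrophil markers fell as well (median -4.97 and -3.63), to a summed level of 35.7 to 64.2 CPM in WT and 87.4 to 1080.3 CPM in KO. The part of these markers in the fall of the iron genes was not tested, and in such bulk samples fewer cells of a type cannot be told apart from less RNA per cell.

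Steap4, a ferric and cupric reductase of the STEAP family, was close to absent before day 3. Its reads numbered 6, 3 and 9 in the WT libraries of day 0 and 1091, 1408 and 2051 on day 3. In the KO libraries they numbered 23, 4 and 20 on day 0 and 737, 935 and 361 on day 3. In CPM this was 0.457 ± 0.208 (SD, n = 3) against 84.7 ± 29.4 for WT and 1.13 ± 0.722 against 40.5 ± 18.6 for KO. The rise was 181-fold for WT (log2 fold change 7.5, SE 0.631, adjusted p = 2.79e-06) and 35.2-fold for KO (5.14, SE 0.552, adjusted p = 2.59e-05), with few reads behind either start value. On day 1 the reads were still 1, 4 and 4 in WT and 17, 21 and 9 in KO.

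Steap4 was also the gene with the smallest unadjusted p between the labels. On day 3 the WT libraries held 56.3, 82.8 and 115 CPM and the KO libraries 43.9, 57.2 and 20.4 CPM, so that the groups overlapped by the KO library of 57.2 CPM. The difference was -1.06 (SE 0.439, unadjusted p = 0.0287, adjusted p = 0.419). On day 1 KO was higher, by 2.30 (SE 0.75, unadjusted p = 0.00808, adjusted p = 0.5), with at most 21 reads in any library. The change from day 0 to day 3 differed between the labels by -2.36 (SE 0.796), with an unadjusted p of 0.00976 and an adjusted p of 0.91. Along the day 3 libraries Steap4 was lowest (20.4 CPM) in the KO library with the lowest mean log2 CPM of osteoclast markers, 7.69. It was highest (115 CPM) in the WT library with the highest mean, 8.95. The libraries between them, in rising order of that mean, held 43.9, 82.8, 56.3 and 57.2 CPM and did not follow it. Tfrc was lowest (254 CPM) and highest (511 CPM) in the same 2 end libraries. In that same pair Slc40a1 was highest (149.7 CPM) and lowest (33.7 CPM) of the 6, Slc11a1 likewise (423 and 118 CPM), and Fth1 too (5745 and 2489 CPM). The other genes that fell did not keep to this order: Hmox1 was at 303 CPM in the first of the pair and highest, at 401 CPM, in WT library 2, and Ftl1 was lowest in KO library 2 (3174 CPM against 3221 CPM in WT library 3).

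**Figure D3:**
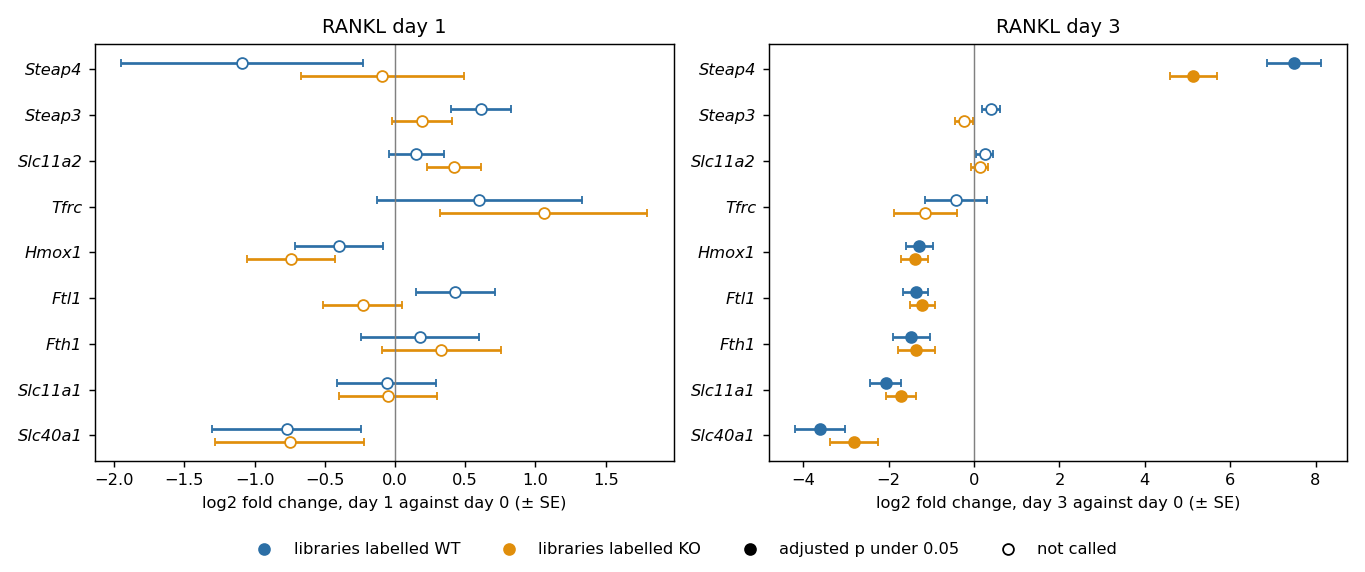
Log2 fold change (± SE) of each gene on RANKL day 1 (left) and day 3 (right) against day 0, for libraries labelled WT (blue) and KO (orange), 3 libraries a group; filled points passed the test at an adjusted p under 0.05. No gene is filled on day 1, and on day 3, with TMM scaling, Steap4 is the only filled point above 0 under either label; both panels share their day 0 libraries.

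Tfrc, the transferrin receptor, did not pass the test on any day. The WT libraries held 1107, 279 and 465 CPM on day 0 and 421, 448 and 511 CPM on day 3. The KO libraries held 303, 1294 and 283 CPM on day 0 and 285, 312 and 254 CPM on day 3. The double-hyphen library of each day 0 group lay more than 600 CPM above its companions. The difference was -0.42 for WT (SE 0.731, adjusted p = 0.644) and -1.14 for KO (SE 0.739, adjusted p = 0.224). Its sign rested on those libraries: among single-hyphen libraries it was 0.37 for WT (adjusted p = 0.226) and 0.01 for KO (adjusted p = 0.981). A term for title style gave 0.44 (adjusted p = 0.0953) and -0.10 (adjusted p = 0.745). On day 1 Tfrc was at 511 and 318 CPM in the single-hyphen WT libraries and 1978 CPM in the double-hyphen one, and the KO libraries held 1689, 1789 and 435 CPM, the last with a single hyphen. Day 1 exceeded day 0 by 0.60 in WT (adjusted p = 0.697) and 1.06 in KO (adjusted p = 0.669), and by 0.38 (adjusted p = 0.268) and 0.52 (adjusted p = 0.228) once title style was a term. By group mean the order ran from KO day 1 (1304 CPM) through WT day 1 (936), KO day 0 (627), WT day 0 (617) and WT day 3 (460.0) to KO day 3 (284), and neighbours overlapped except the last pair. There the WT libraries of day 3 all lay above the KO ones, but the difference of -0.70 did not pass the test (SE 0.733, adjusted p = 0.76), nor did it with a term for title style (adjusted p = 0.166).

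The comparison of title styles was chosen after the values were seen, and it covers days 0 and 1, since no day 3 title has a double hyphen. In a fit of the 18 libraries with the 6 groups, 4 of the 9 genes were called between the styles, beside 23.2% of all genes tested. Tfrc was 4.0-fold higher in the double-hyphen libraries (log2 fold change 2.00, SE 0.154, adjusted p = 8.12e-06) and ranked 6 of 14241 genes by p. Fth1 was 1.95-fold higher (0.96, SE 0.172, adjusted p = 0.0022), and the 5 double-hyphen libraries, at 14422 to 19364 CPM, did not overlap the 7 single-hyphen ones of days 0 and 1, at 7715 to 9630 CPM. Slc11a2 was higher by 0.46 (SE 0.0803, adjusted p = 0.00197) and Hmox1 by 0.58 (SE 0.18, adjusted p = 0.0324). Ftl1, Slc40a1, Slc11a1, Steap3 and Steap4 were not called, at 0.23, 0.46, 0.33, 0.33 and -0.10.

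Other markers moved with the titles too. Of the 5 erythroid genes tested 4 were lower in the double-hyphen libraries, all of them globins, and the erythroid list summed to 8.21 to 18.6 CPM there and to 20.0 to 44.6 CPM in the other libraries of days 0 and 1. Alas2 and Slc4a1, which define red cell precursors, were at 0 in all 18 libraries. Cell cycle genes were lower in 9 of 10 cases, their summed level being 353 to 423 CPM against 315 to 1291 CPM. Of 10 osteoclast markers 1 was higher and 3 were lower, with a summed level of 599 to 1221 CPM in the double-hyphen and 224 to 988 CPM in the single-hyphen libraries of days 0 and 1. Stromal and osteoblast genes were lower in 4 of 9, and 1 of 8 macrophage markers, Cd68, was higher. None of the 10 neutrophil markers was called. What the hyphens stand for is not stated, and the part of these markers in the iron genes was not tested.

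Slc11a2, the endosomal and plasma membrane iron transporter, varied least. It was at 107, 82.3 and 69.3 CPM in the WT libraries of day 0 and at 103, 102 and 104 CPM on day 3, a difference of 0.25 (SE 0.195, adjusted p = 0.291) with overlap of the groups. The KO libraries gave 69.3, 110.4 and 62.8 CPM on day 0, 112, 116 and 97.2 CPM on day 1 and 82.7, 90.8 and 92 CPM on day 3 (0.13, adjusted p = 0.609). Among single-hyphen libraries the gene was higher on day 3, by 0.50 for WT (adjusted p = 0.00606) and 0.48 for KO (adjusted p = 0.00942). It was likewise called with a term for title style, at 0.42 (adjusted p = 0.00636) and 0.32 (adjusted p = 0.0341), and with total counts as the scaling.

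Steap3, the ferrireductase that serves transferrin-bound iron in red cell precursors, was at 74.6, 41.2 and 53.4 CPM in the WT libraries of day 0 and at 74.3, 65.6 and 82.2 CPM on day 3. The difference of 0.39 was not called (SE 0.213, adjusted p = 0.134). Without WT day 0 library 1 it was 0.68 (adjusted p = 0.0197), and among single-hyphen libraries 0.71 (adjusted p = 0.0105). In the KO libraries it went from 52.6, 92.8 and 79.8 CPM to 61.3, 63.5 and 66.3 CPM, a difference of -0.24 (adjusted p = 0.387). On day 1 the WT libraries (81.9, 101 and 74.8 CPM) lay just above those of day 0, with an unadjusted p of 0.0124 and an adjusted p of 0.126.

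The remaining comparisons called none of the 9 genes. After 1 day of RANKL 0 of 9 were called for WT, where 2.35% of all genes were, and 0 of 9 for KO, where 0.0211% were. At an unadjusted p under 0.05 there was 1 gene for WT, Steap3, and there were 2 for KO, Hmox1 and Slc11a2. Between the labels 0 of 9 were called on day 0 (0.119% of all genes), on day 1 (0.112%) and on day 3 (0.14%), and 0, 2 and 1 had an unadjusted p under 0.05. The interaction of label and day, day 3 against day 0, called 0 of 9 and 0% of all genes, with 1 of the 9, Steap4, at an unadjusted p under 0.05. The DESeq2 Wald test called none of the 9 in any of these 6 comparisons either. The SE of these log2 differences reached 1.03 (Tfrc, in the interaction), and a difference of 2.30 with an SE of 0.75 (Steap4 on day 1) was not called, so differences of several SE could be missed with 3 libraries a group. Markers moved between the labels as well without being called. The median log2 difference of the 10 neutrophil markers, KO above WT, was 1.91 on day 0 and 3.35 on day 3. That of the 9 stromal and osteoblast genes tested was 1.09 on day 3. For the 10 osteoclast markers the median of KO against WT was 1.08 on day 0 and -0.56 on day 3. Their median in the interaction was -1.46. The part of these markers in the iron genes was not tested.

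Further genes of iron and heme handling were taken by list. Of 14 tested genes of uptake, reduction and export beside the 9, 3 rose and 5 fell on day 3 in the WT libraries, and 2 rose and 4 fell in KO. Tfr2, the second transferrin receptor, rose from 0.523 ± 0.434 to 6.0 ± 1.65 CPM (SD, n = 3) in WT (log2 fold change 3.48, adjusted p = 6.82e-04) and by 4.73 in KO (adjusted p = 1.36e-04). Steap2 rose by 1.96 in WT (adjusted p = 0.0412) and was 1.82 higher in KO, which was not called (adjusted p = 0.0595). With a term for title style Steap2 was called in KO (1.36, adjusted p = 0.0453), as among single-hyphen libraries (1.55, adjusted p = 0.0233). Ltf (lactoferrin) and Lcn2 (lipocalin 2) fell by 5.43 and 5.22 in WT and by 3.77 each in KO. Both are granule proteins of neutrophils, whose markers fell beside them. With total counts 4 genes of the list rose and 4 fell under either label.

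Among 6 tested genes of iron sensing and ferritin handling 2 fell and none rose under either label. These were Fbxl5, the iron-sensing ligase subunit that marks iron regulatory protein 2 for decay (-0.67 in WT, -0.5 in KO), and Pcbp2, an iron chaperone (-0.41 and -0.43). With total counts as the scaling neither was called, and 2 other genes of the list were called higher. Among single-hyphen libraries Pcbp2 lost its call under either label (adjusted p = 0.0794 in WT and 0.143 in KO). There 1 gene of the list rose and 1 fell in WT, and 2 rose and 1 fell in KO. A term for title style gave 2 higher and 2 lower in WT, and 0 higher and 2 lower in KO. Ireb2 and Aco1, which encode the iron regulatory proteins, differed by 0.00 and 0.19 in WT and by 0.09 and 0.17 in KO, and none of these passed the test.

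Of 14 tested heme genes 5 fell and none rose under either label. Blvrb, which encodes biliverdin reductase B, fell by 1.63 in WT (435 ± 34.6 to 141 ± 41.7 CPM, adjusted p = 2.52e-05) and by 1.5 in KO (adjusted p = 7.74e-05). Hmox2, the constitutive heme oxygenase, fell by 1.52 (adjusted p = 4.70e-05) and by 1.30 (adjusted p = 2.36e-04). With total counts 5 lower genes stood beside 3 genes called higher in WT and 2 in KO, and with DESeq2 size factors beside 1 in either.

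In the mitochondrial list 5 of 12 tested genes rose and 2 fell in WT, and 4 rose and 2 fell in KO. These counts stood beside 50.2% (WT) and 42.5% (KO) of all genes called. The median log2 fold change of the list was 0.27 in WT and -0.05 in KO. Fdx1 (ferredoxin 1) rose by 1.32 in WT (adjusted p = 1.07e-04) and by 1.14 in KO (adjusted p = 4.95e-04). Glrx5 (glutaredoxin 5, of iron-sulfur cluster assembly) rose by 1.17 (adjusted p = 6.43e-04) and by 0.84 (adjusted p = 0.00724). Both mitoferrins, which carry iron into mitochondria, fell: Slc25a37 by 0.87 in WT and 0.81 in KO, and Slc25a28 by 0.41 and 0.56. With total counts the call of Slc25a28 was lost under either label, and 8 genes rose and 1 fell in WT. Under the same scaling 5 rose and 1 fell in KO. Among single-hyphen libraries the call of Slc25a28 was lost too (adjusted p = 0.142 in WT and 0.0528 in KO).

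Of 5 transcription factors 3 fell and none rose under either label. Bach1, the heme-binding repressor of Hmox1 and ferritin genes, fell by 1.49 in WT (226 ± 23.7 to 80.1 ± 21.8 CPM, adjusted p = 2.99e-04) and by 1.04 in KO (adjusted p = 0.00461). Spic, a factor of red pulp macrophages, fell by 1.41 (adjusted p = 1.64e-04) and changed by -1.92 in KO (adjusted p = 4.01e-05). With total counts the 3 falls stood beside 2 genes called higher in KO. With a term for title style 1 gene was called higher under either label, and among single-hyphen libraries 1 in KO. All these list counts are descriptions, read beside the 50.2% (WT) and 42.5% (KO) of all genes called on day 3.

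**Figure D4:**
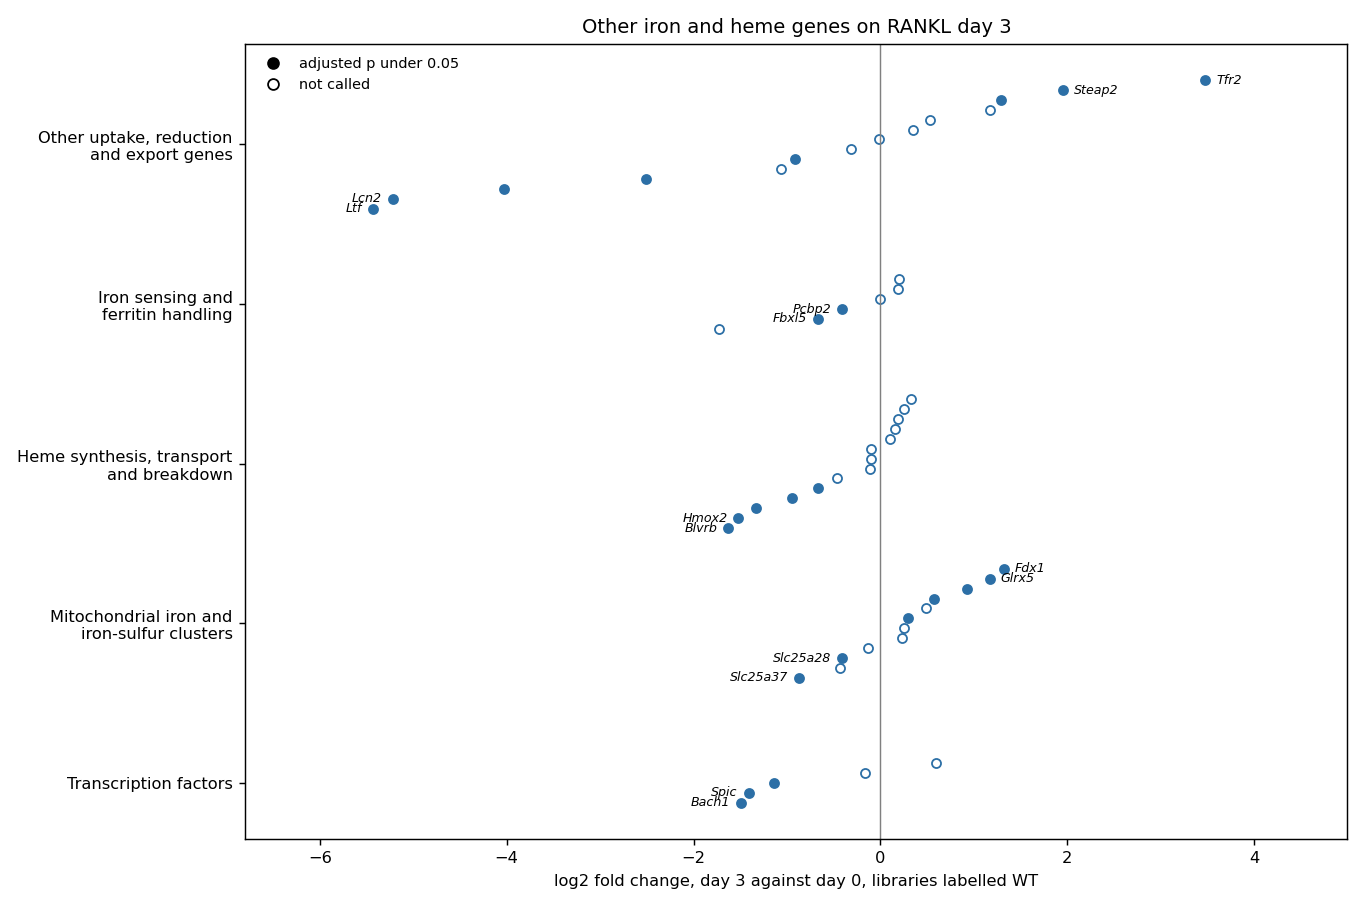
Log2 fold change on RANKL day 3 against day 0 in the libraries labelled WT (x axis) for tested genes of 5 lists of iron and heme genes (y axis, genes of a list ordered by value); filled points passed the test at an adjusted p under 0.05, and at most 2 called genes in each direction are named. With TMM scaling heme genes and transcription factors have filled points below 0 alone, and 5 of the 7 filled mitochondrial points lie above 0. With total counts 3 heme genes are called higher, and with a term for title style 1 transcription factor is.

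As a description over the 18 libraries, whose levels share the contrast of day 3 with the earlier days, the log2 CPM of Slc40a1, Slc11a1, Fth1, Ftl1 and Hmox1 correlated with one another at Pearson's r of 0.81 to 0.96. Steap4 correlated with them at -0.73 to -0.94. Tfrc correlated at 0.73 with Slc11a2 and 0.70 with Fth1, which share its higher level in double-hyphen libraries. The genes most like each member by r over these 18 libraries were Sidt2, Scarb2 and Wwp1 for Slc40a1 (0.982 to 0.981), Slc48a1, Igf1 and Zfp385a for Slc11a1 (0.986 to 0.98), and Psap, Ctsd and Pld3 for Fth1 (0.979 to 0.978). For Ftl1 they were Ppfibp2, Dock2 and Gm10116 (0.96 to 0.955), for Hmox1 Tprgl, Entpd1 and Cyp4f18 (0.948 to 0.938), and for Steap4 Slc14a2, Bcar3 and Car2 (0.973 to 0.966). Tfrc was most like Vps29, Mb and Ins2 (0.934 to 0.928), of which Mb did not exceed 1.15 CPM and Ins2 ran from 0.0 to 50.5 CPM. Slc11a2 was most like the mitochondrial transcripts mt-Cytb, mt-Co3 and mt-Nd5 (0.894 to 0.868), and Steap3 most like Vsig8, Psmb6 and Atf1 (0.88 to 0.855). Levels were low for Slc14a2 too, at 0.0 to 9.59 CPM, and for Vsig8, at 0.619 to 13.8 CPM.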

How the data were processed

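RNA sequencing libraries of 18 BMDM samples were analysed from 1 table that holds, for each gene, counts and FPKM of every library. The authors deposited whole-number counts, used here for every test, and FPKM values, used here for levels per length. The submitters' processing notes name StringTie and the builds GRCm38.p4 and mm10. The deposited FPKM equal count over gene length and total in the 9 genes. The aligner and the counter are not given in the sources used here. The columns that belong to no sample numbered 0.

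Counts were fitted in R 4.3.3 with edgeR 4.0.16 (filterByExpr, TMM, glmQLFit and glmQLFTest, 6 groups, all 18 libraries, 2-sided, Benjamini-Hochberg over 14241 genes), and DESeq2 1.42.0 was an alternative. SE were taken from the F statistic, and log2 CPM used a prior count of 2. The fit was tested on simulated counts. Hairpins were searched in GENCODE M21 transcripts. The genes, lists and tests were chosen with earlier results of these data known. All 9 genes are named, of other lists at most the 2 largest called changes in each direction on WT day 3, and for each of the 9 the 3 most alike by r. Ireb2, Aco1 and the named marker genes fall outside this rule and were chosen after their values were seen. 1 gene of the mitochondrial list is not reported here and is left out of that list's counts.

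Whether numbers pair libraries was checked by correlating deviations from group means. Every same-number pair of KO day 0 and day 3 correlated by over 0.1 (0.13 to 0.398), and none of the other 6 pairs of groups examined met this. Alternatives were another scaling, filter, test or threshold, the replicate number as a block, title style, the pair of WT day 1 libraries numbered 1 summed, ferritin copies summed, and each library left out. Counting error from 13789775 to 17559958 counts per library is small beside the spread between libraries, except for Steap4 before day 3.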

Additional observations from a re-analysis of the deposited data

How the results depend on the processing

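Over 1392 refits of a gene in a comparison, 1304 kept their direction and side of the threshold, 5 lost a call (all Fth1 on day 3, each with 1 library left out), 10 gained one (Slc11a2 and Steap3 on day 3), and 73 changed sign with no call on either side. No called gene reversed. The unadjusted threshold of the study (p under 0.05, and a ratio over 1.5 or under 0.66) gave 1 gene for RANKL day 1 in WT, 1 in KO, 2 between the labels on day 1, 1 on day 3 and 1 in the interaction. Over all genes, calls on day 1 in WT ran from 0 (only the groups compared) to 1809 (leaving out the WT day 1 library titled with a double hyphen). On day 3 they ran from 5724 to 7746 in WT and 4444 to 6695 in KO. Day 1 in KO gave 0 to 170, the labels 6 to 196 on day 0, 3 to 131 on day 1 and 9 to 235 on day 3, and the interaction 0 to 4. The fits restricted to single-hyphen libraries were chosen after seeing the data. As a paired analysis, the replicate block within each label, and the replicate block over both labels, left the 6 called genes on day 3 in WT and the 6 in KO called and changed no other call. Fth1 over Ftl1 per length moved from 3.06 to 0.988 in WT day 0 with the length used, from 2.51 to 0.829 in WT day 1 and from 4.8 to 1.56 in KO day 1, and the cause is the gene length itself. With 3 libraries a group, differences of several times their SE could be missed.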
